A study of Mus musculus with 4 samples.

Results

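The genes Pdcd1, Ctla4, Icos, Havcr2, Cd160, Cd244a, Entpd1, Nr4a1, Nr4a2 and Nr4a3 were examined, 10 of the 20665 protein-coding genes on mouse autosomes in the RefSeq gene table. They were chosen by name, as genes of immune checkpoint receptors and of T cell exhaustion. No cutoff on a measured value was used, but earlier results of these data were known. For each, the deposited H3K9me3 islands were read over the gene body and 100 kb on each side, in build mm10. The study mapped the histone mark H3K9me3, trimethylation of lysine 9 of histone H3, by native ChIP-seq (chromatin cut with micrococcal nuclease and not cross-linked) in wild-type CD8+ T cells from the mouse strain C57BL/6. The day 0 library came from naive cells, and the day 3 library from cells cultured with anti-CD3, anti-CD28 and the growth factor IL-2. All libraries shared the strain, the wild-type genotype and, for ChIP, the antibody lot. There was 1 ChIP library per day, so no test between days was possible, and each difference given here is a difference between 2 libraries. The input libraries were not analysed here.

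H3K9me3 is a mark of heterochromatin, laid down by histone methyltransferases and bound by HP1 proteins, and it is often spread over kilobases of repeats and silent genes. Checkpoint receptors sit on the surface of T cells and restrain, or in the case of ICOS promote, signalling through the antigen receptor. Several are absent or low on naive cells, appear within days of stimulation, and stay high on exhausted T cells, which have met antigen for a long time. The NR4A proteins are orphan nuclear receptors whose genes are switched on rapidly by antigen receptor signals and which are linked to the exhausted state.

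An island is a run of 200 bp windows that the authors' peak caller merged and kept as significant. The day 0 list held 19989 islands and the day 3 list 47553, with 3402787 and 10423178 reads inside them. These read counts are not scaled for depth. Read density per island began at 23.6 per kb in the day 0 list and at 34.1 in the other, so the lists differ in what they could contain. A gene without an island had no region past the authors' threshold there, and the mark may still be present below it. As for the labelled cell type, islands lay over the body of 1 of 10 CD8 T cell marker genes on day 0 (Cd5, 4.4 kb) and 0 on day 3, over 1 of 5 B cell and 1 of 5 myeloid marker genes on each day, and over 0 of 2 NK cell marker genes on either. Of 2 CD4 T cell marker genes, Cd4 had 10.6 kb of its body in islands on day 0, and neither had an island on day 3. Over all autosomal protein-coding genes, 24.0% had an island over the body on day 0 and 28.7% on day 3. The marker sets are small, and their counts were not tested against these shares. A repressive mark does not identify a cell type, and the label was not checked further.

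The bodies of these genes were almost free of islands on both days, and most genes had no island over the body either. Of the 10 genes, 9 had no island over the body on either day, against 64.2% of all autosomal protein-coding genes. Only Icos had an island over its body on day 0 (1 of 10 genes, against 24.0% of all genes), and none of the 10 had one on day 3 (0 of 10, against 28.7%). With 10 genes, these gaps to the background were not tested. The median body length was 26.5 kb for the 10 genes and 17.5 kb for all genes. Whether length bears on these counts was not tested. With the flanks included, the day 0 list had an island for 8 of the 10 and the day 3 list for 9, against 72.0% and 71.4% of all genes. An island was listed on both days for 8, against 59.7%. These counts were near the background. Nr4a1 had none on either day, as did 16.4% of all genes. The map of islands around each gene shows these positions.

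**Figure D1:**
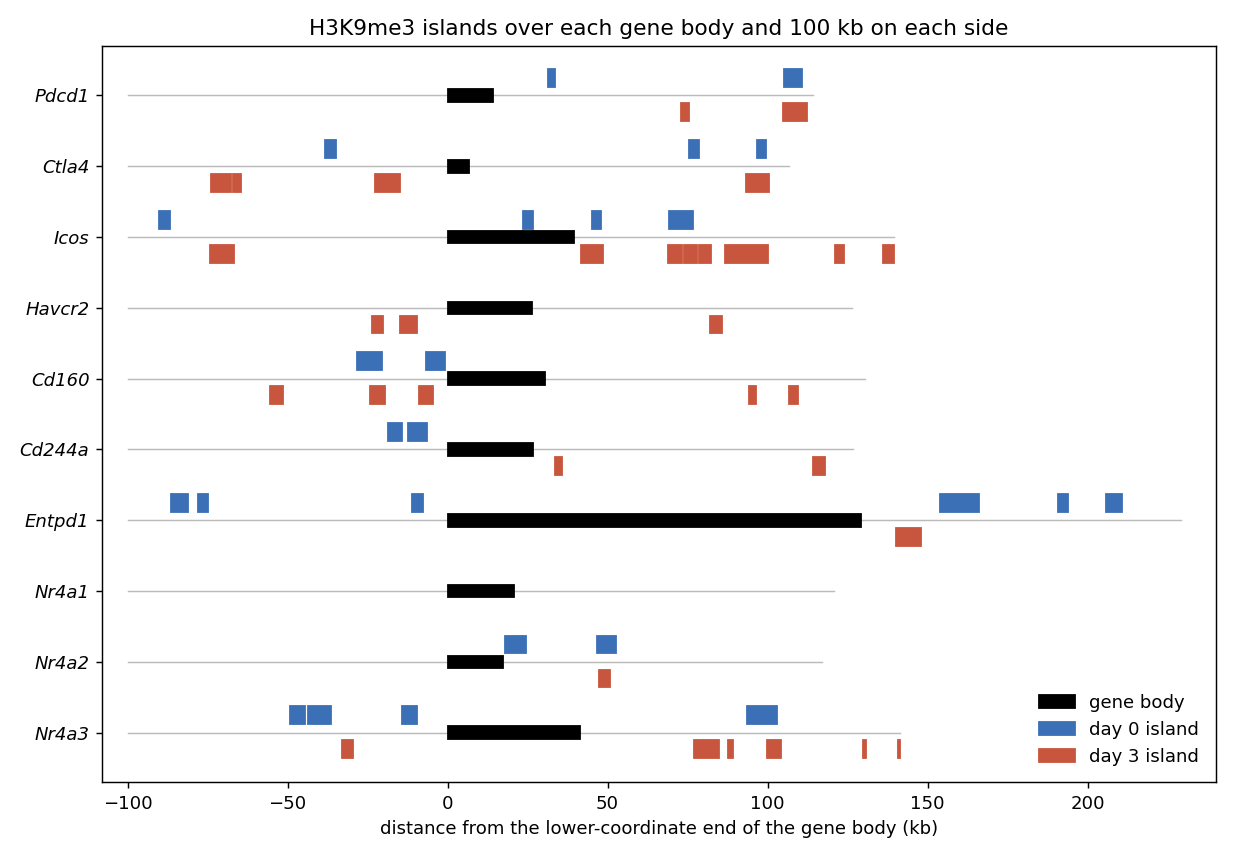
Islands of the day 0 list (blue, above each line) and the day 3 list (red, below) over the body (black) and 100 kb flanks of the 10 genes, with distance in kb from the lower-coordinate end of the body on the x axis. The day 0 island in Icos is the single island over a body, and the Nr4a1 line is empty.

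The promoter sequences of the Nr4a genes and of Pdcd1 are shown because the Nr4a2 start had the nearest island of any of the listed starts, the Nr4a1 start had the farthest on day 0, and Pdcd1 is a receptor gene for contrast. Each is the stretch of 250 bases before the transcription start in RefSeq (GRCm38.p6, the assembly that mm10 names), 5′ to 3′ on the gene's strand. Capitals mark TGACG, the core of the cAMP response element that CREB proteins bind, on either strand (shown as CGTCA where it lies on the other strand).
Nr4a1 (chr15:101266596-101266845, plus strand): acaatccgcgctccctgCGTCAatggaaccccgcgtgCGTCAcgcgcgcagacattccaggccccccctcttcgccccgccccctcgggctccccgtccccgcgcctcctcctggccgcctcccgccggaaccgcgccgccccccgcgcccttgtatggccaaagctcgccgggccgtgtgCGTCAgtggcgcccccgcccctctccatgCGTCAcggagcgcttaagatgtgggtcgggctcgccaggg
Nr4a2 (chr2:57124004-57124253, minus strand): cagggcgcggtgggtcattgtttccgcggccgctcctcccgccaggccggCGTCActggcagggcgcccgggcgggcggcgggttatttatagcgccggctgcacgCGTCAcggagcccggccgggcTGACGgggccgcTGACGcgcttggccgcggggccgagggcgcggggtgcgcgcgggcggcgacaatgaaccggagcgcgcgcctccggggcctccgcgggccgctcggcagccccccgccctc
Nr4a3 (chr4:48045055-48045304, plus strand): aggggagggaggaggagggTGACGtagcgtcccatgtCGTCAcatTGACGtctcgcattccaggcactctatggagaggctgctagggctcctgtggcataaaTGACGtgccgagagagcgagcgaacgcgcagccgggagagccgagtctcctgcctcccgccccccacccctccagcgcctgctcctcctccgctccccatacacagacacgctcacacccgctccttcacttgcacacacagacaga
Pdcd1 (chr1:94052554-94052803, minus strand): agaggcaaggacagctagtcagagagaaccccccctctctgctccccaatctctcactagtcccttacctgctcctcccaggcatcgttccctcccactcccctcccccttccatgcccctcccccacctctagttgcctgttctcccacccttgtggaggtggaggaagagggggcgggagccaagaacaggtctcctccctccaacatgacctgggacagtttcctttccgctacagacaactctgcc

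The 3 Nr4a promoters each held 4 TGACG cores and the Pdcd1 promoter held 0. Both Entpd1 promoters and 1 of the 2 Cd160 promoters held 1 each, and the others held 0. At least 1 core was thus present in 6 of the 11 member promoters, and in 17.8% of the 32851 promoters in the table. The full element TGACGTCA was in none of the members' promoters and in 1.55% of the promoters in the table. Other short sequences were also searched. The NFAT core GGAAA was in 6 of the 11, against 55.6%, which is near the background. The AP-1 site TGANTCA (N is any base) was in 2, against 6.75%. The NBRE sequence AAAGGTCA was in 0, against 1.34%. The Nr4a promoters were also rich in CpG, the dinucleotide that DNA methyltransferases act on. There were 34 CpG in that of Nr4a1, 44 in that of Nr4a2 and 18 in that of Nr4a3. The median of the table was 6 and its upper quartile was 16, so Nr4a3 lay little above that quartile. The Entpd1 promoters held 18 and 8, the higher of which equals that of Nr4a3. The other member promoters held 2 to 7. The letters TGACG themselves contain a CpG, and the 17.8% was not matched for CpG count. Promoters were matched for 9 of the 10 genes, with 2 each for Cd160 and Entpd1, and Icos had no entry. No island of either day covered any of these starts. These matches describe the letters in the window and show neither binding nor activity.

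Pdcd1 (chromosome 1, 94038305 to 94052553), which encodes the inhibitory receptor PD-1, had islands on its upstream side alone. On day 0, 2 islands covered 7.8 kb of the body and flanks, and on day 3, 2 islands covered 9.6 kb. The day 0 island nearest to the gene (94069601 to 94072000) lay 17.0 kb upstream of the start and held 114 reads (exact 95% Poisson interval 94.0 to 137), with 47.5 reads per kb. No day 3 island overlapped it, and the nearest on day 3 was 58.8 kb upstream. The farther island, 91.0 kb from the gene on day 0 and 90.6 kb on day 3, was listed on both days (175 and 374 reads). Its 5.4 kb on day 0 lay wholly inside the day 3 island. The difference in covered length, 1.8 kb more on day 3, turned to -2.4 kb with flanks of 50 kb, -0.4 kb with lists of equal length and -0.2 kb when less dense islands were left out. Lists of equal length keep the 19989 day 3 islands with the most reads, and less dense islands are those under the median density of their own list. Intervals on read counts cover counting error only, since reads from PCR libraries are not independent molecules.

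Ctla4 and Icos are neighbours on chromosome 1, so their windows share islands (3 on day 0 and 2 on day 3) and they are not independent. Ctla4 (60909025 to 60915832) encodes an inhibitory receptor that competes with the costimulatory receptor CD28 for ligands. Icos (60960773 to 61000322) encodes a costimulatory receptor of the same family. Of the Ctla4 window 9.4 kb lay in day 0 islands and 23 kb in day 3 islands, and of the Icos window 16.8 kb and 46.7 kb. Both windows were thus covered more on day 3, and the Icos value of 19.5% of the window was the highest of the 10 genes. A lower share was found for 93.9% of all genes on day 3 and for 78.8% on day 0.

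The gain in covered length lay outside the receptor genes themselves. The day 0 island inside Icos (60984401 to 60987600) covered 3.2 kb, or 8.09% of the body, with 116 reads (interval 95.9 to 139). On day 3 no island overlapped it. The nearest day 3 island (61002401 to 61009400, 384 reads) started 2.08 kb past the upper end of Icos and contained the day 0 island found 5.48 kb past it. Beyond it on the upper side, 6 further day 3 islands began between 29.3 and 96.5 kb from the body, the longest of 13.6 kb with 623 reads. On that side 10.2 kb was covered on day 0 and 39.1 kb on day 3. On the lower side of Ctla4, 3.4 kb and 16 kb were covered, and the nearest island was at 35.0 kb on day 0 and 15.0 kb on day 3. With flanks of 200 kb the Icos window had 16.8 kb and 89.9 kb in islands. With islands of at least the median density of their list the excess on day 3 was 7.8 kb in the Icos window and 3.4 kb in that of Ctla4.

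**Figure D2:**
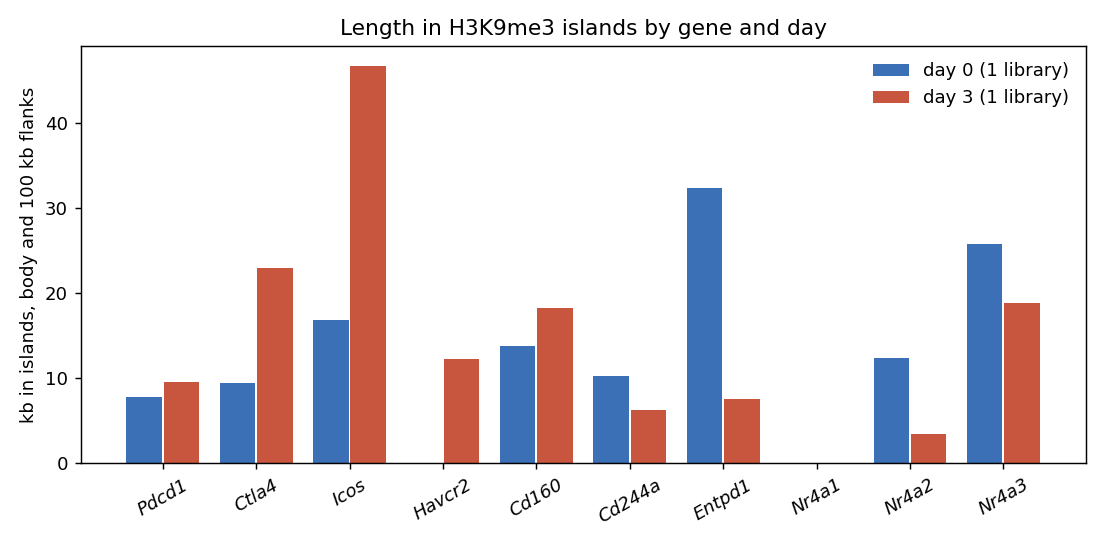
Length in islands (kb) over the body and 100 kb flanks of each gene, with 1 bar per library and no error because there is 1 library per day. Icos rises to 46.7 kb on day 3, Entpd1 has the most kb on day 0 with 32.4 kb, and Nr4a1 is at 0 on both days.

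Havcr2 (chromosome 11, 46454931 to 46481255) encodes TIM-3, an inhibitory receptor of exhausted T cells. Its window had no island on day 0, when the nearest lay 170 kb away, and 3 islands over 12.2 kb on day 3. The nearest of these (46440201 to 46445400, 281 reads) ended 9.53 kb upstream of the start and overlapped Med7, which encodes a Mediator subunit. A further island lay 20.1 kb upstream, and the last overlapped the predicted gene Gm12169 on the other side. Havcr2 was the only gene of the 10 with islands in the window on day 3 and none on day 0. Genes outside the 10 shared this pattern. Of all genes, 71.4% had an island in body or flanks on day 3 and 59.7% had one on both days. With lists of equal length 5.2 kb remained on day 3, and with flanks of 200 kb the window held 3.4 kb and 16 kb.

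Cd160 (chromosome 3, 96798763 to 96829351), whose product binds HVEM, had its nearest islands on the side of its 3′ end on both days. In its window 2 day 0 islands covered 13.8 kb and 5 day 3 islands covered 18.2 kb. The nearest ended 0.763 kb from the body on day 0 (96792001 to 96798000, 189 reads) and 4.56 kb from it on day 3 (96789801 to 96794200, 231 reads), and these overlapped each other. On the side of the 5′ end there was no day 0 island in the window, and 2 day 3 islands lay 63.7 and 76.3 kb away. The neighbour Rnf115, a ubiquitin ligase gene, lay under 1 of the day 0 islands and 3 of the day 3 islands. The difference of 4.4 kb turned to -4.6 kb with flanks of 50 kb, -2.4 kb with flanks of 200 kb and -0.4 kb with lists of equal length.

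Cd244a (chromosome 1, 171558718 to 171585316) encodes 2B4, a receptor of the SLAM family that binds CD48. The islands around it changed sides between the libraries. On day 0, 2 islands covered 10.2 kb on the upstream side, and the nearest on the other side was 458 kb away. On day 3, 2 islands covered 6.2 kb on the downstream side, and the nearest upstream was 343 kb away. The nearest were at 6.52 kb on day 0 (171546401 to 171552200, 206 reads) and 6.89 kb on day 3 (171592201 to 171594600, 138 reads), the latter over the SLAM family gene Ly9. No base of the window was in an island on both days. The difference of -4 kb turned to 8.4 kb with flanks of 200 kb.

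Entpd1 (chromosome 19, 40612366 to 40741602) encodes CD39, an ectoenzyme that breaks down extracellular ATP and ADP on the way to adenosine. With flanks of 100 kb it had the most kb in islands of the 10 genes on day 0 and the largest excess of day 0 in kb. By share of the window Nr4a3 was higher on day 0 (10.7% against 9.84%). With flanks of 50 kb Nr4a3 held more (16.6 against 15.6 kb), and the excess of Nr4a2 was larger (-9 against -8 kb). On day 0, 6 islands covered 32.4 kb, 12 kb on the upstream side and 20.4 kb on the downstream side. On day 3 a single island covered 7.6 kb (40752601 to 40760200, 355 reads), and it overlapped none of the 6. Its body of 129 kb, the longest of the 10, had no island on either day. The nearest island on day 0 ended 7.57 kb upstream of the start, over Tctn3, and the nearest on day 3 began 11.0 kb past the other end, over Cc2d2b. The largest day 0 island (40766401 to 40778600) was 12.2 kb long with 424 reads, also over Cc2d2b. The difference of -24.8 kb was -22 kb when less dense islands were left out. It was -8 kb with flanks of 50 kb and -13 kb with flanks of 200 kb. The other alternatives took no island out of this window, so they could not change the value.

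**Figure D3:**
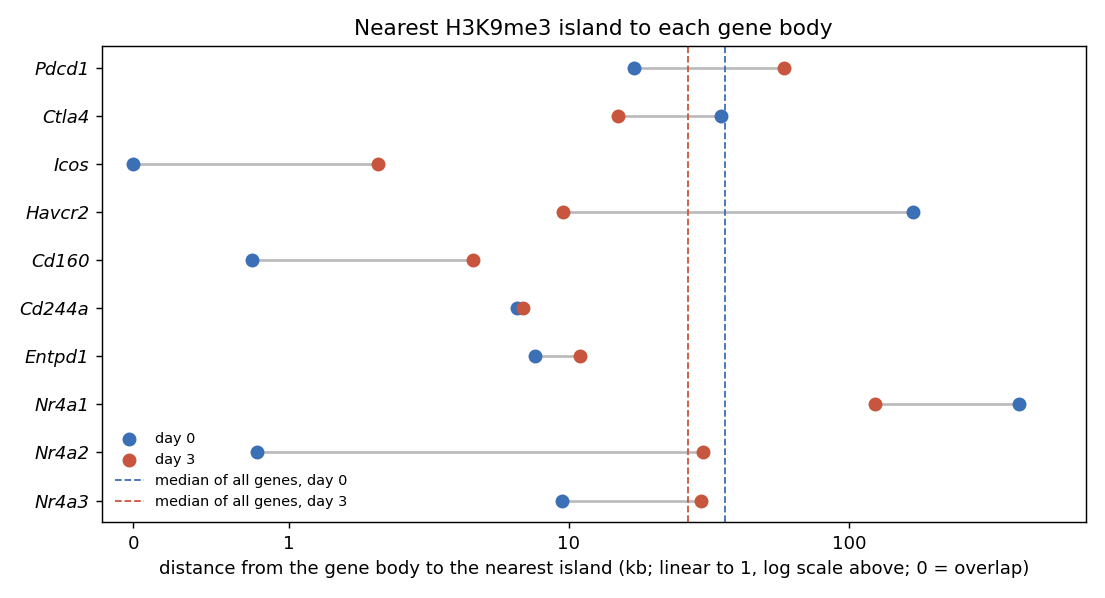
Distance (kb) from each gene body to its nearest island on day 0 (blue) and day 3 (red), on an axis that is linear up to 1 kb and logarithmic above it, with dashed lines at the medians of all autosomal protein-coding genes (36.1 kb on day 0 and 26.6 kb on day 3). The day 0 point lies nearer to the gene for 7 of the 10 genes.

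The 3 Nr4a genes had unlike surroundings, from an empty window around Nr4a1 to islands on both sides of Nr4a3. Nr4a1 (chromosome 15, 101253902 to 101274795), which encodes NUR77, had its nearest island 406 kb away on day 0 and 124 kb away on day 3. A farther nearest island was found for 5.89% of all genes on day 0 and for 25.3% on day 3. Its window held 5 other protein-coding genes, among them Acvr1b, Grasp and Atg101, while those of Nr4a2 and Nr4a3 held 2 and 1.

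Nr4a2 (chromosome 2, 57106830 to 57124003), which encodes NURR1, had 2 islands over 12.4 kb on day 0 and 1 over 3.4 kb on day 3. The nearer day 0 island (57124801 to 57131200, 217 reads, interval 189 to 248) began 0.798 kb upstream of the transcription start, beyond the CpG-rich promoter printed above. It held 33.9 reads per kb, slightly less than the least dense day 3 island. No day 3 island overlapped it, and the nearest on day 3 (57154201 to 57157600, 212 reads) lay 30.2 kb upstream, inside the other day 0 island. The difference of -9 kb was -2.6 kb when less dense islands were left out and turned to 8.8 kb with flanks of 200 kb.

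Nr4a3 (chromosome 4, 48045078 to 48086447), which encodes NOR1, had 4 islands over 25.8 kb on day 0 and 6 islands over 18.8 kb on day 3. On its upstream side 16.6 kb was covered on day 0 and 3.2 kb on day 3, while on the other side, over Stx17, a syntaxin gene, 9.2 kb and 15.6 kb were covered. The nearest island was 9.48 kb away on day 0 and 29.7 kb away on day 3. The 4 day 0 islands had densities of 30.1 to 33.8 reads per kb, each below the lowest in the day 3 list. The difference of -6.95 kb turned to 3.45 kb when less dense islands were left out and to 39.8 kb with flanks of 200 kb.

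Across the 10 genes, the nearest island was nearer on day 0 for 7 (Pdcd1, Icos, Cd160, Cd244a, Entpd1, Nr4a2 and Nr4a3) and nearer on day 3 for 3 (Ctla4, Havcr2 and Nr4a1), against 38.9% and 43.8% of all genes. With lists of equal length the count was again 7, but 60.6% of all genes then had the nearer island on day 0, so the gap to the background was small. With less dense islands left out it was 5, against 41.6%. The body and flanks were covered more on day 3 in 5 genes and more on day 0 in 4, against 48.6% and 34.7% of all genes, both near the background. The median difference was 0.9 kb, and that of all genes was 0. The order of the nearest islands on the 2 days and the bands below were chosen as measures after the positions of these islands had been seen.

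Coverage was also read by distance from the bodies. The bodies had 0.907% of their length in islands on day 0 and 0 on day 3, against 5.11% and 9.46% over all genes, where long genes weigh more. The mean of the share per gene over all genes was 3.66% and 6.09%. Within 10 kb outside the bodies the share was 10.8% on day 0 and 7.13% on day 3, against 3.56% and 5.15% over all genes. From 10 to 50 kb it was 7.87% and 7.41%, against 3.97% and 5.45%, and from 50 to 100 kb it was 4.08% and 7.22%, against 4.16% and 5.84%. These shares came from few genes. On day 0, Nr4a2 held 6.4 kb and Cd160 6 kb of the 21.6 kb within 10 kb, and Pdcd1, Ctla4, Havcr2 and Nr4a1 held none. On day 3, Icos held 7 kb of the 14.3 kb. An island reached within 10 kb of the body, or over it, in 6 genes on day 0 (33.0% of all genes) and 4 on day 3 (39.3%). With islands of at least the median density the share within 10 kb was 4.36% on day 0 and 4.93% on day 3, against 1.61% and 2.31% over all genes. Day 0 was thus no longer above day 3 there, while both stayed above the background. These shares rested on still fewer genes. On day 0 they came from Icos (2.8 kb), Cd244a (3.48 kb) and Entpd1 (2.4 kb) alone. On day 3 Icos held 7 kb, Cd244a 2.4 kb and Havcr2 0.47 kb, so the day 3 share came mostly from Icos. With 10 genes chosen by name and 1 library per day, these shares carry no test.

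**Figure D4:**
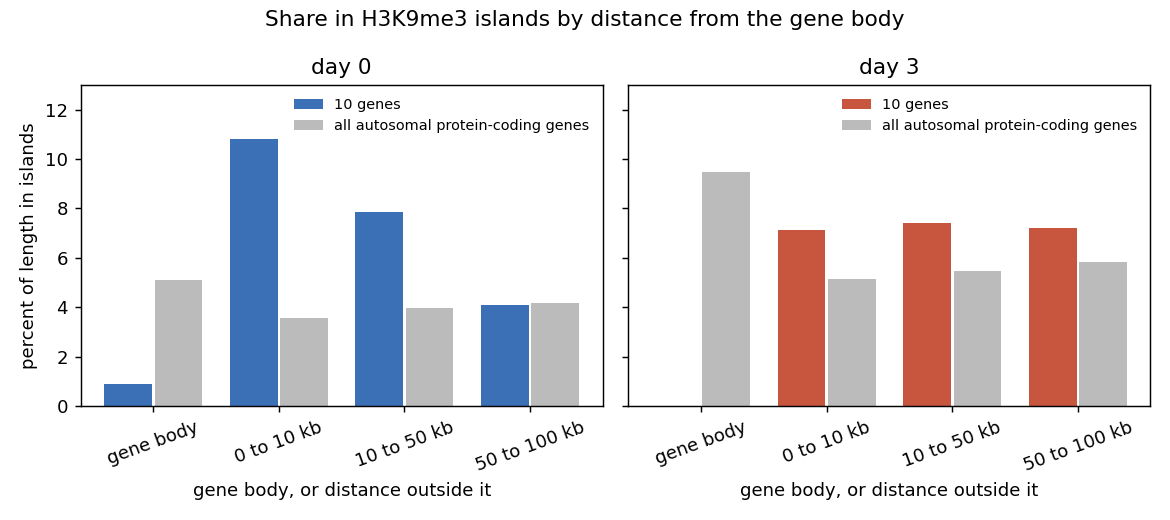
Percent of length in islands in the gene bodies and in 3 bands outside them, for the 10 genes (coloured) and all autosomal protein-coding genes (grey), with day 0 on the left and day 3 on the right. The coloured bar is lowest in the body on both days, and on day 0 it is highest within 10 kb of it, at 10.8%, to which 6 of the 10 genes contribute.

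Together the 10 windows, merged to 9 where they overlapped, spanned 2198 kb and held 22 different islands on day 0 and 30 on day 3. They covered 119 kb (5.42%) and 131 kb (5.97%). Of the 22 day 0 islands 7 overlapped a day 3 island (31.8%, 95% Wilson interval 16.4 to 52.7), against 33.6% of the whole day 0 list. Of the 30 day 3 islands 8 overlapped a day 0 island (26.7%, interval 14.2 to 44.4), against 14.9% of the whole list. Both intervals treat islands as independent, which neighbouring islands of 1 library are not. Beside Icos, the day 3 islands 61029601 to 61034000 and 61034801 to 61038600 overlapped the same day 0 island. The intervals are thus likely too narrow. Of the islands, 15 on day 0 (68.2%) and 17 on day 3 (56.7%) lay over no protein-coding gene, against 48.3% and 54.3% of the whole lists. Median read density was 33.8 per kb for the day 0 islands and 53.4 for the day 3 islands, near the medians of the whole lists, 34.1 and 52.9. Of the 22 day 0 islands 12 had a density below the lowest in the day 3 list, as had 50.4% of the whole day 0 list.

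**Figure D5:**
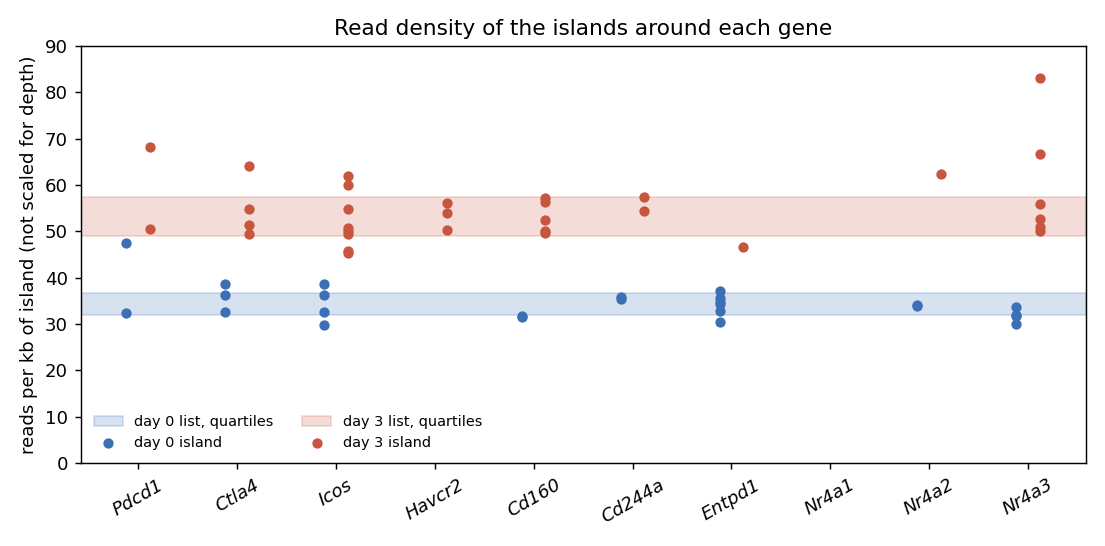
Read density (reads per kb, not scaled for depth) of each island in the windows, by gene, on day 0 (blue) and day 3 (red), with bands between the quartiles of each whole list. The day 0 islands lie between 29.7 and 47.5 and the day 3 islands between 45.3 and 83.

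Other genes of the same pathways were read in the same way, from lists drawn up with earlier results of these data known. Their counts stand against the shares of all genes given above, 24.0% on day 0 and 28.7% on day 3 for an island over the body, and 48.6% and 34.7% for more coverage of body and flanks on day 3 and on day 0. Of 10 ligand and partner genes, 1 had a body island in the day 0 list and 5 in the day 3 list, and 7 were covered more on day 3 and 2 on day 0 in body and flanks. Cd274 and Pdcd1lg2, which encode the ligands of PD-1, had 13.6 and 34.4 kb of body and flanks in islands on day 0 and 41.1 and 40.8 kb on day 3. They are neighbours on chromosome 19, so their windows overlap and they are not independent. Cd86, a ligand gene of CTLA-4 and CD28, had 21.4 kb and 33.4 kb, and Cd48, the ligand gene of 2B4, had 0 and 23.4 kb. The Cd48 window overlaps that of Cd244a and shares its day 3 islands.

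Of 14 other receptor genes, 3 had a body island on day 0 and 7 on day 3, and 9 were covered more on day 3 and 5 on day 0. The day 0 body count was near the background. Ranked by the higher of the 2 days, the first were Cd226 (26.2 and 111 kb), an activating receptor gene, and the inhibitory or modulating receptor genes Btla (23 and 63.8 kb), Cd96 (12.8 and 59.6 kb) and Tigit (4.6 and 39.3 kb). Cd28, named after its value was seen because it lies in the same cluster as Ctla4 and Icos, had 9.17 and 37.6 kb, with 0 and 6.21 kb of its body in islands. The inhibitory receptor gene Lag3, also named after its value was seen, was among the 5 in the other direction, with 10.6 kb and 0.

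Of 7 genes of the adenosine pathway, 5 had a body island on day 0 and 2 on day 3, the latter at the background, and 4 were covered more on day 3 and 3 on day 0. Nt5e, which encodes CD73, the enzyme that acts after CD39, had 5.6 kb of body and flanks in islands on day 0 and 46.7 kb on day 3, the opposite order to Entpd1. The adenosine receptor gene Adora2b had 25.6 and 13.3 kb, the adenosine deaminase gene Ada 17.2 kb and 0, and Dpp4, which encodes the surface protease CD26, 60.0 and 104 kb. Of 14 transcription factor genes, 4 had a body island on each day, near the background, and 7 were covered more on day 3 and 5 on day 0. They were led by Tox (70.6 and 139 kb of body and flanks), Ikzf2 (90.4 and 98.2 kb), Bach2 (45.9 and 18.2 kb) and Prdm1 (32.6 and 26.2 kb). This order is by kb and not by share of the window, and a longer gene has a longer window. By covered kb on the 2 days, over 2 libraries, the listed genes nearest to the members' median of 11.3 and 10.9 kb were Batf (9.6 and 12 kb), Pilra (7.6 and 14.8 kb) and Lair1 (5.4 and 11.8 kb).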

How the data were processed

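Each ChIP started from 4000000 cells, and libraries were read to about 100000000 paired-end reads (150 bases), per the labels' protocols. The submitters' processing notes name Bowtie2, SICER version 1.1 and build mm10. Not given in the sources used here were the threshold, the gap, the handling of duplicates and the use of input. Each deposited list of the authors gives island borders and an unnamed whole number, read here as a raw read count because it followed island length (Pearson's r across islands, which are no replicates, was 0.950 in the day 0 list and 0.966 in the other).

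Borders fell on multiples of 200 bp and were converted to 1-based positions. Gene bodies came from RefSeq (GRCm38.p6), which includes predicted transcripts. Background shares used the 20665 autosomal protein-coding genes of 21900, since the lists hold almost no island on the sex chromosomes. An overlap needed 1 bp. Distances run from the end of a body to the nearest island. Python 3.11.15, numpy 2.4.6, pandas 2.3.3 and scipy 1.17.1 were used, and the interval functions were tested on simulated data. No test between days was run, as each day had 1 library. Members and lists were chosen with earlier results of these data known. All 10 members were named, with the genes under their islands, and from each context list at most 4 genes with the most covered kb, beside 2 named after their values were seen.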

Additional observations from a re-analysis of the deposited data

How the results depend on the processing

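Across 6 alternatives, the difference in covered length of the 10 genes (60 values in all) changed sign in 10. The other values were classed as moved in 22 and as the same in 28. The latter class did not need identical values, and held Ctla4 with 11.2 kb for lists of equal length, against 13.6 kb. Flanks of 50 and 200 kb gave 6 moved values each, but they change the window itself. The 2 settings named next gave 10 values each classed as the same. The totals thus do not measure how stable the differences were. Asking for islands of at least 2 kb, or for at least 50% of the island inside the window, altered the value of Nr4a3 alone. It was -9.75 kb and -7.6 kb there. For the other genes these settings took out no island, so they could turn no sign. The sign changes were those given for Pdcd1, Cd160, Cd244a, Nr4a2 and Nr4a3, with values of -0.4, -0.2 and -2.4 kb for Pdcd1, -0.4, -4.6 and -2.4 kb for Cd160, 8.4 kb for Cd244a, 8.8 kb for Nr4a2, and 3.45 and 39.8 kb for Nr4a3. The median difference of 0.9 kb was -0.4 kb with lists of equal length (the 19989 day 3 islands with the most reads), -3.1 kb with flanks of 50 kb, 1.7 kb with islands of at least the median density and 10.7 kb with flanks of 200 kb.

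The length in islands in the merged windows was 46.6 kb on day 0 and 46.4 kb on day 3 with the density limit, 87.8 and 73.5 kb with flanks of 50 kb, and 180 and 328 kb with flanks of 200 kb. With lists of equal length it was 96 kb on day 3. The genes covered more on day 3 numbered 3 with lists of equal length, 3 with flanks of 50 kb and 8 with flanks of 200 kb. Those covered more on day 0 numbered 6, 6 and 2. The shares over all genes were not computed under these settings, so these counts have no background beside them. Within 10 kb outside the bodies, an alternative added after seeing the data, the share was 4.36% on day 0 and 4.93% on day 3 with the density limit, and 5.93% on day 3 with lists of equal length. The counts of genes with an island over the body, 1 and 0, were the same under each alternative run for them. Those alternatives only leave islands out, so the count of 0 on day 3 could not change. The share of all genes with a body island fell to 15.3% on day 0 and 20.2% on day 3 with the density limit. With lists of equal length it was 18.9% on day 3. No paired analysis was possible because each day had 1 ChIP library. The total depth of the libraries is not known from the lists, which limits any comparison of reads between days.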
